A study of Mus musculus with 12 samples.

Results

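The 10 genes described here are the positional transcription factors of the hind limb: Hoxa10, Hoxa11, Hoxa13, Hoxc9, Hoxc10, Hoxd10, Hoxd11, Hoxd13, Tbx4 and Pitx1. They were taken by symbol from the 27998 genes of the count tables, and each symbol matched 1 gene. Single-cell RNA sequencing had been performed on CD45-negative synovial cells of mouse hind limb joints, sorted to leave out blood-derived cells, in serum transfer-induced arthritis (STIA). All mice were wild type C57BL/6, and each library pooled the joints of 3 animals. There were 3 libraries for each of 4 stages: untreated rest at day 0, peak disease between days 7 and 9, a resolving stage on day 15 and the resolved stage on day 22, the latter 3 after an intravenous injection of 100 μl of arthritogenic K/BxN serum. The mice were males of 8 to 10 weeks.

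Hox genes lie in clusters in which the order along the chromosome follows the order of their domains along the body and along the limb. Those at the 5′ end of the HoxA and HoxD clusters pattern the limb from thigh to toes in the embryo, with Hoxa13 and Hoxd13 acting in the foot. Tbx4 and Pitx1 are made in the hind limb bud and not in the forelimb bud, where Tbx5 takes the place of Tbx4, and fibroblasts of adult limbs and joints are known to keep part of this positional code.

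By the GENCODE annotation of GRCm38 (mm10), all 10 are protein-coding genes. Hoxa10 lies at chr6:52231197-52240854, Hoxa11 at chr6:52242106-52245810 and Hoxa13 at chr6:52257694-52260880, all on the minus strand. On the plus strand lie Hoxc10 at chr15:102966796-102971893 and Hoxc9 at chr15:102976439-102985099, and Hoxd13 at chr2:74668310-74671599, Hoxd11 at chr2:74679557-74687016 and Hoxd10 at chr2:74691924-74695105. Tbx4 lies at chr11:85886422-85916097 on the plus strand and Pitx1 at chr13:55825051-55836192 on the minus strand. Annotated genes on the same strand overlap 5 of the 10, namely Hoxc5 at Hoxc9 and Hoxc10, Gm28309 at Hoxd10 and Hoxd11, and Gm28760 at Pitx1, so reads in the shared stretches cannot be assigned with certainty. Genes on the other strand, Hoxa11os at Hoxa11 and Gm47071 at Pitx1, overlap 2 of them.

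The start-site sequences of 4 members are shown because these genes carried the contrasts described further on: Hoxd13 and Hoxd11 were found in the same cells, Hoxa13 and Hoxd13 made up a share of Hox transcripts that differed between fibroblast clusters, and Hoxa10 had the most counts. RefSeq windows matched 7 of the 10 members, and each run gives 150 bases of such a window (GRCm38.p6), 5′ to 3′ on the gene's strand, and capitals mark matches on either strand to TATAAA (as in TATA boxes), to CCAAT and to GGGCGG, which overlap in places.
Hoxd13 (chr2:74668075-74668224, plus strand): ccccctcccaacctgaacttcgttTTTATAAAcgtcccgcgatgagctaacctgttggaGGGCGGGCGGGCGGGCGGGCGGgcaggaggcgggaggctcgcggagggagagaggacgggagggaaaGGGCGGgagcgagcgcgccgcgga
Hoxa13 (chr6:52260881-52261030, minus strand): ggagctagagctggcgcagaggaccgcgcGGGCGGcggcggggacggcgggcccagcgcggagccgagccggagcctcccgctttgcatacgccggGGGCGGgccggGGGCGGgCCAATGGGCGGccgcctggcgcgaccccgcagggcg
Hoxd11 (chr2:74682173-74682322, plus strand): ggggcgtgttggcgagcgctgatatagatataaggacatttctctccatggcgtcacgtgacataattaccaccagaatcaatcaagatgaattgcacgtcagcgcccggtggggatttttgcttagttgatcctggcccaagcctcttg
Hoxa10 (chr6:52234940-52235089, minus strand): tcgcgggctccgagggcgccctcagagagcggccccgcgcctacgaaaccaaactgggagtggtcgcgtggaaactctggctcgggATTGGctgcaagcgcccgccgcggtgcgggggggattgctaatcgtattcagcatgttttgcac
The Hoxd13 window held 2 overlapping TATAAA matches and 6 GGGCGG matches, and the Hoxa13 window held 4 GGGCGG matches and 1 CCAAT match. The Hoxa10 window held 1 CCAAT match and the Hoxd11 window none of the 3 motifs. Among 32851 promoter windows of this length, 7.57% held TATAAA, 24.5% CCAAT and 28.6% GGGCGG. CpG pairs numbered 19, 25, 8 and 17 in the windows of Hoxd13, Hoxa13, Hoxd11 and Hoxa10, against a median of 4 over all windows.

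After limits on genes and unique molecular identifiers (UMIs, each standing for 1 captured RNA molecule) per cell, 20060 of 21042 cells were kept, 1227 to 2747 per library, with 7468914 to 16566202 UMIs per library. Clusters were named from markers, each name meaning only that the cells resembled that type, and 12 types were named, among which fibroblasts were the most numerous with 10828 cells (43.4% to 62.8% per library) in 8 clusters. All 7 fibroblast markers were detected more often in the cells so named than in the others, from Pdgfra in 52.1% to Dcn in 99.9% of them. The same markers had served to name the clusters, so their detection describes the named cells and does not test the name. A further 2247 cells, in the clusters led by Angptl7 and by Ccl9, were left unnamed and outside the fibroblast values. All 7 fibroblast markers were found in at least 30% of the cells of both. The median number of UMIs per deposited cell was 5358 in each of the 12 libraries, and no barcode was shared between libraries. Across genes, the fibroblast sum of each library was most like that of a library whose barcode suffix lay in the same run of 3 consecutive suffixes (1 to 3, 4 to 6, 7 to 9 and 10 to 12) in 12 of 12 cases, and never most like that of a library with its own stage label. The fibroblast clusters led by C1qtnf3, Spon2 and Cthrc1 and by Cxcl5, Saa3 and Sfrp1 made up 52.4% to 72.2% of fibroblasts in the libraries with suffixes 4 to 9 and at most 3.72% in the others, so each result across libraries is given by label and by run. Whether each barcode suffix carries the right stage label was not tested, and every value by stage holds only for the libraries as labelled.

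Transcripts of the 10 members were found in every library, in the largest shares of cells in fibroblasts, tenocytes, osteoblasts, chondrocytes and proliferating cells. Their UMIs in the kept cells numbered 5882 for Hoxa10, 4794 for Hoxc10, 4029 for Pitx1, 1762 for Hoxc9, 1658 for Hoxa11, 971 for Hoxd11, 860 for Hoxd10, 794 for Hoxd13, 388 for Hoxa13 and 256 for Tbx4. Of fibroblasts, 55.8% (95% Wilson interval 54.9 to 56.7) had at least 1 UMI of a member, at a median depth of 5877 UMIs. The share was 6.16% (5.13 to 7.38) in vascular endothelial cells, at a median depth of 3182 UMIs, and 1 of 112 immune cells held such a UMI. In between lay perivascular cells with 29.3%, muscle cells with 26% and lymphatic endothelial cells with 22.0%. After thinning each cell to 2000 UMIs, which left out 177 fibroblasts and 201 vascular endothelial cells, the shares were 27.7% and 2.68%, and those of muscle, perivascular and lymphatic endothelial cells 19.8%, 16.0% and 11%. Thinned shares were 39.7% in osteoblasts, 31.7% in tenocytes, 30.3% in chondrocytes and 22.9% in proliferating cells. These and all later counting intervals cover counting error only. Fibroblasts with 2 or more members numbered 1658 with 2, 632 with 3, 164 with 4, 24 with 5 and 5 with 6.

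**Figure D1:**
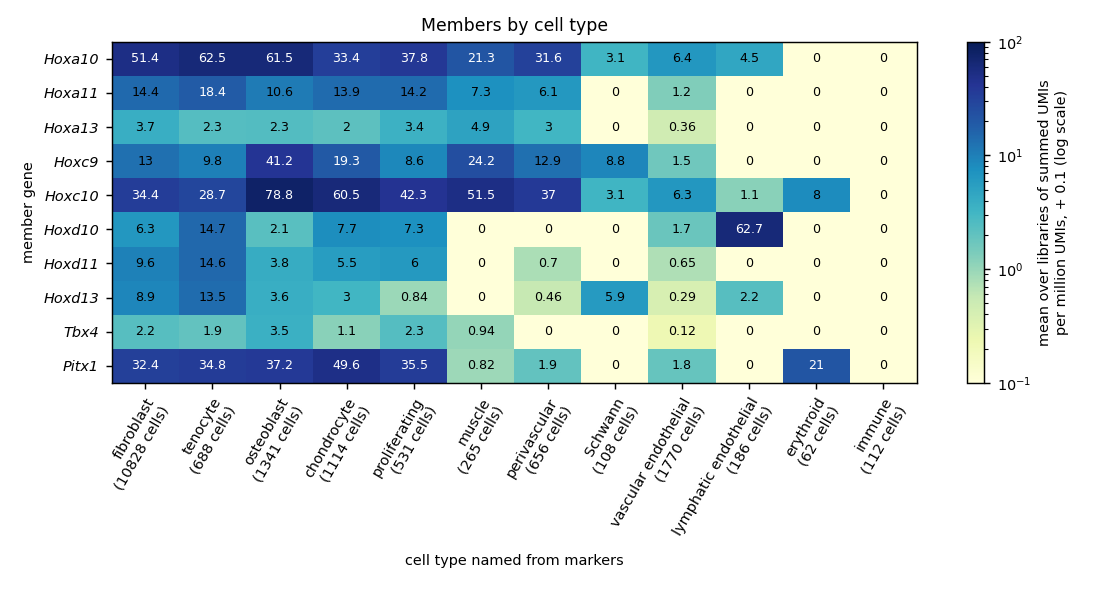
Mean level of each member (rows) in each cell type named from markers (columns), as counts-per-million values (CPM) of UMIs summed per library and averaged over libraries with at least 10 cells of the type, on a log colour scale. Fibroblasts, tenocytes, osteoblasts, chondrocytes and proliferating cells hold all 10 members. Vascular endothelial cells hold all 10 at lower levels, from 0.119 for Tbx4 to 6.43 for Hoxa10. Perivascular and muscle cells hold Hoxa and Hoxc genes with Pitx1 at 1.88 and 0.821, and lymphatic endothelial cells hold Hoxd10 at 62.7.

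Levels are CPM summed over the cells of a type in a library. A log2 difference was called when its Benjamini-Hochberg adjusted p in edgeR's quasi-likelihood test, over all genes tested, was under 0.05 and its size was over 0.5. Hoxa13, Hoxd11 and Tbx4 did not pass the filter on low counts in the fit across cell types, so 7 of the 10 members were tested there, and the levels of the other 3 are given without a test. A gene could pass this filter through a type in which it was high, so the counts of members called depend in part on the filter. In comparisons within libraries, the library was a block, and the p-values measure how the differences vary from library to library. In those between stages or runs they measure the spread between libraries of a stage or run. Levels of different genes are not corrected for how well each is captured. Counts of members called in a comparison are set beside the share of all 10137 genes called in it.

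Pitx1, a homeodomain factor that specifies the hind limb, was found in fibroblasts, the skeletal types and proliferating cells, and was near 0 in endothelial, perivascular, muscle and Schwann cells. Erythroid cells held 3 of its UMIs in 62 cells. Its CPM ran from 21.7 over a median of 33.0 to 46.7 in fibroblasts of the 12 libraries, and averaged 49.6 ± 22.9 in chondrocytes, 37.2 ± 12.1 in osteoblasts and 34.8 ± 19.9 in tenocytes (SD, n = 12), and 35.5 ± 11.04 in proliferating cells (SD, n = 6). These 5 types overlapped one another within their spread. In perivascular cells, the contractile cells around vessels, Pitx1 averaged 1.88 ± 3.48 CPM with no UMI in 8 of 12 libraries, and its log2 difference of fibroblasts over perivascular cells was 3.94 ± 0.37 (SE, adjusted p = 5.24e-16, edgeR), higher in 12 of 12 libraries. Muscle cells held 1 Pitx1 UMI in 265 cells, a ratio of fibroblasts over muscle of 23.6 (95% counting interval 4.24 to 934), and lymphatic endothelial cells held none in 186, so the level was at least 8.36-fold higher in fibroblasts, computed against a floor of 3 counts over the type. In vascular endothelial cells the highest library was at 3.43 CPM, under the lowest fibroblast value, with a log2 difference of 4.39 ± 0.27 (adjusted p = 8.59e-26, edgeR).

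Tbx4, the T-box factor of the hind limb, was the member with the fewest counts. In fibroblasts it ran from 0.908 over 1.97 to 4.69 CPM, with 7 to 44 UMIs per library, and osteoblasts averaged 3.45 ± 3.25 CPM (SD, n = 12). Perivascular, lymphatic endothelial, Schwann and immune cells held no Tbx4 UMI. Tbx5, its counterpart in the forelimb and not a member, was found at a like level in fibroblasts, 0.377 to 4.33 CPM, with 149 UMIs in all against 162 of Tbx4. Both were present in fibroblasts of all 12 libraries.

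The Hoxa members were found in fibroblasts, tenocytes, osteoblasts, chondrocytes and, at lower levels, in perivascular and muscle cells. Hoxa10 CPM in fibroblasts ran from 19.3 over 55.1 to 97.8, and averaged 62.5 ± 30.3 in tenocytes, 61.5 ± 14.2 in osteoblasts, 33.4 ± 8.79 in chondrocytes and 31.6 ± 14.9 in perivascular cells (SD, n = 12). The ranges of these 5 types overlapped. Hoxa10 was higher in fibroblasts than in perivascular cells by 0.86 ± 0.19 on the log2 scale (adjusted p = 8.29e-05, edgeR) and than in chondrocytes by 0.51 ± 0.15 (adjusted p = 0.00304), the latter call lying at the limit of 0.5 and lost in 11 of 21 alternatives (0.40 to 0.50), among them DESeq2 (0.47) and 8 of the 12 fits that left out 1 library. Against osteoblasts and tenocytes its log2 differences were -0.18 ± 0.14 and -0.33 ± 0.16 (SE) and were not called. Hoxa11, a factor of the lower leg, averaged 14.4 ± 5.46 CPM in fibroblasts and 6.14 ± 5.47 in perivascular cells, a called log2 difference of 1.25 ± 0.31 (adjusted p = 0.000531, edgeR). Hoxa13 averaged 3.71 ± 1.31 CPM in fibroblasts, between 2.02 and 3.36 in tenocytes, osteoblasts, chondrocytes, perivascular and proliferating cells, and 0.357 ± 0.671 in vascular endothelial cells.

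The Hoxc members were higher in osteoblasts and chondrocytes than in fibroblasts, and were present in perivascular and muscle cells, where Hoxd10 was not found. Hoxc10, which is known to take part in hind limb patterning and in motor neurons, ran from 21.5 over 31.2 to 55.1 CPM in fibroblasts and from 42.4 over 80.7 to 98.9 CPM in osteoblasts. In 12 of 12 libraries it was higher in osteoblasts, with a log2 difference of fibroblasts over osteoblasts of -1.12 ± 0.13 (SE, adjusted p = 4.48e-12, edgeR). Hoxc9 ran from 7.22 over 13.5 to 20.8 CPM in fibroblasts and from 16.6 over 43.0 to 68.6 CPM in osteoblasts, also higher in osteoblasts in 12 of 12 libraries, with a log2 difference of -1.54 ± 0.18 (adjusted p = 1.77e-11, edgeR). In chondrocytes Hoxc10 averaged 60.5 ± 21.0 and Hoxc9 19.3 ± 9.27 CPM (SD, n = 12), and the log2 differences of fibroblasts over chondrocytes were -0.84 ± 0.13 and -0.67 ± 0.20 (adjusted p = 1.19e-07 and 0.00415, edgeR). Hoxc10 averaged 37.0 ± 21.8 CPM in perivascular cells (n = 12) and 51.5 ± 27.9 in muscle cells (n = 8), where the log2 differences of fibroblasts over each, 0.17 ± 0.18 and -0.18 ± 0.27, were not called. For Hoxc9 those differences were 0.22 ± 0.31 and -0.76 ± 0.40 (SE), also not called.

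The Hoxd members divided the cell types more sharply. Hoxd10 was not found in 656 perivascular, 265 muscle, 108 Schwann or 112 immune cells, and its level in fibroblasts was at least 6.43-fold higher than in perivascular cells. In lymphatic endothelial cells, whose vessels drain the joint, it had 47 UMIs in 186 cells and ran from 0 over 53.4 to 149 CPM in 10 libraries, with only resolved replicate 3 at 0. In fibroblasts Hoxd10 ran from 0.908 over 6.41 to 16.1 CPM, and the log2 difference of fibroblasts over lymphatic endothelial cells was -2.80 ± 0.41 (SE, adjusted p = 2.08e-08, edgeR), lower in fibroblasts in 9 of 10 libraries. The other 9 members together had 3 UMIs of Hoxa10 and 1 each of Hoxc10 and Hoxd13 in these cells. Hoxd10 was also lower in fibroblasts than in tenocytes (-1.29 ± 0.36, adjusted p = 0.00437, edgeR), where it averaged 14.6 ± 11.5 CPM, and higher than in osteoblasts (1.66 ± 0.45, adjusted p = 0.00192), where it averaged 2.14 ± 2.70.

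Hoxd13, the gene at the 5′ end of the HoxD cluster that patterns the digits, ran from 2.82 over 4.68 to 32.7 CPM in fibroblasts, with peak replicate 1 highest. It averaged 13.5 ± 10.1 CPM in tenocytes, 3.63 ± 4.85 in osteoblasts and 2.98 ± 3.42 in chondrocytes (SD, n = 12), and the ranges overlapped that of fibroblasts. Its log2 differences of fibroblasts over osteoblasts and chondrocytes were 1.43 ± 0.35 and 1.32 ± 0.35 (SE, adjusted p = 0.000593 and 0.00105, edgeR), and over proliferating cells 2.32 ± 0.57 (adjusted p = 0.000832), higher in fibroblasts in 6 of 6 libraries. Muscle cells held no Hoxd13 UMI, and perivascular cells held 2, a ratio of 12.4 (3.41 to 103). Hoxd11 averaged 9.60 ± 5.15 CPM in fibroblasts and 14.6 ± 7.33 in tenocytes, with 3 UMIs in perivascular cells, a ratio of 9.46 (3.22 to 46.0), and none in muscle cells.

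By comparison, 7 of 7 tested members were called in fibroblasts over vascular endothelial cells, all higher, where 53.2% of all genes were called. The count was 7 over lymphatic endothelial cells (6 higher; 40.4% of all genes), 5 over perivascular cells (40.6%) and 5 over muscle cells (40.3%), all higher. It was 5 over chondrocytes (2 higher; 33.2%), 4 over osteoblasts (2 higher; 27.5%), 1 over tenocytes (lower; 21.4%) and 1 over proliferating cells (higher; 27.6%). Over the types with few libraries it was 4 for immune cells (3 libraries; 31.8%), 4 for Schwann cells (3 libraries; 16.7%) and 1 for erythroid cells (2 libraries; 17.5%), all higher. Over tenocytes and proliferating cells the 1 of 7 called was not above the share of all genes.

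Within chondrocytes, the 2 clusters differed in the Hoxd and Pitx1 levels, given here as a description. The 800 cells led by Cytl1, Clu and Mfi2 had Pitx1 at 71.0 ± 28.1, Hoxd11 at 10.52 ± 7.89 and Hoxd13 at 8.18 ± 15.0 CPM (SD, n = 12). The 314 cells led by Col9a3, Col2a1 and Col9a1, genes of hyaline cartilage, had Pitx1 at 15.8 ± 8.06 CPM (n = 8), and no UMI of Hoxa13, Hoxd11 or Hoxd13 in any library. Hoxc10 was at 49.1 ± 21.4 and 79.4 ± 32.6 CPM in these clusters. Pitx1 over all chondrocytes was higher than in fibroblasts, by 0.60 on the log2 scale (-0.60 ± 0.15 of fibroblasts over chondrocytes, adjusted p = 0.000459, edgeR). The sign was reversed when cells scored as doublets were left out. There, the log2 difference of fibroblasts over chondrocytes was 0.94 (adjusted p = 0.000559, edgeR), higher in fibroblasts. In that setting the share of the Cytl1 cluster's remaining cells named chondrocyte was 0%.

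Fibroblast clusters are named here by their leading genes. Hox, Tbx and Pitx genes had been left out of the genes used for clustering, and 6 members passed the filter on low counts across the 8 clusters, all but Hoxa13, Hoxd10, Hoxd11 and Tbx4. All 6 differed between clusters in the F test, as did 89.5% of the 6616 genes tested, the clusters having been drawn from the same cells, so the clusters are described by their levels and single contrasts against the mean of the others.

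The cluster led by Nppc, Vipr2 and Egfl6 (851 cells) had the highest levels of Hoxa10, Hoxc9, Hoxc10 and Pitx1. Hoxa10 ran from 102 over 134 to 245 CPM in the 12 libraries, above the mean of the other clusters in 12 of 12, with a log2 difference of 1.86 ± 0.10 (SE, adjusted p = 7.45e-29, edgeR). Hoxc10 ran from 63.8 over 109 to 134 CPM (1.95 ± 0.14, adjusted p = 1.40e-21), and Pitx1 from 54.6 over 95.1 to 137 CPM (2.17 ± 0.12, adjusted p = 6.46e-27), each higher in 12 of 12 libraries. For Hoxc9, at 47.8 ± 21.3 CPM, the difference was 2.09 ± 0.20 (adjusted p = 1.64e-15), higher in 11 of 12. For Hoxa10, Hoxc10 and Pitx1 the lowest library of this cluster lay above the highest library of all fibroblasts pooled, while Hoxd11 and Hoxd13 averaged 5.05 ± 5.81 and 3.96 ± 4.12 CPM. Hoxa11 was called there too at 0.50 ± 0.19 (adjusted p = 0.0233), at the limit, and not in 8 of 19 alternatives, with 0.37 (adjusted p = 0.160) without rest replicate 1, 0.40 (adjusted p = 0.109) with a mitochondrial limit of 10% and 0.49 with DESeq2. In all, 5 members were called in this cluster, against 31.1% of all genes. Its fibroblast name did not hold at a clustering resolution of 0.5, where 89.0% of its cells fell in a cluster named osteoblast.

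The cluster led by Ifi205, Ptx3 and Ccl7 (1255 cells), the last 2 being genes of inflammation, showed the opposite order. Hoxd13 ran from 7.64 over 26.3 to 53.0 CPM, above the mean of the other clusters in 12 of 12 libraries, with a log2 difference of 2.74 ± 0.25 (SE, adjusted p = 6.44e-16, edgeR). Hoxc9 averaged 3.60 ± 3.33, Hoxc10 11.1 ± 8.36 and Hoxa10 19.2 ± 12 CPM (SD, n = 12), the lowest of the 8 clusters for each. Their log2 differences were -1.64 ± 0.35, -1.28 ± 0.23 and -1.18 ± 0.16 (adjusted p = 4.51e-05, 1.74e-06 and 8.31e-10, edgeR), each lower in 12 of 12 libraries. Pitx1 was also lower (-0.85 ± 0.21, adjusted p = 0.000289), as was Hoxa11 (-0.53 ± 0.23, adjusted p = 0.0442), the latter not being called in 7 of the 12 fits that left out 1 library. All 6 tested members were called, against 34.2% of all genes. When no upper limit on genes and UMIs was set, the nearest cluster took only 50.2% of its cells from this one. There, the difference of Hoxa10 was 0.04, that of Hoxa11 0.25 and that of Pitx1 -0.27, none of them called.

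**Figure D2:**
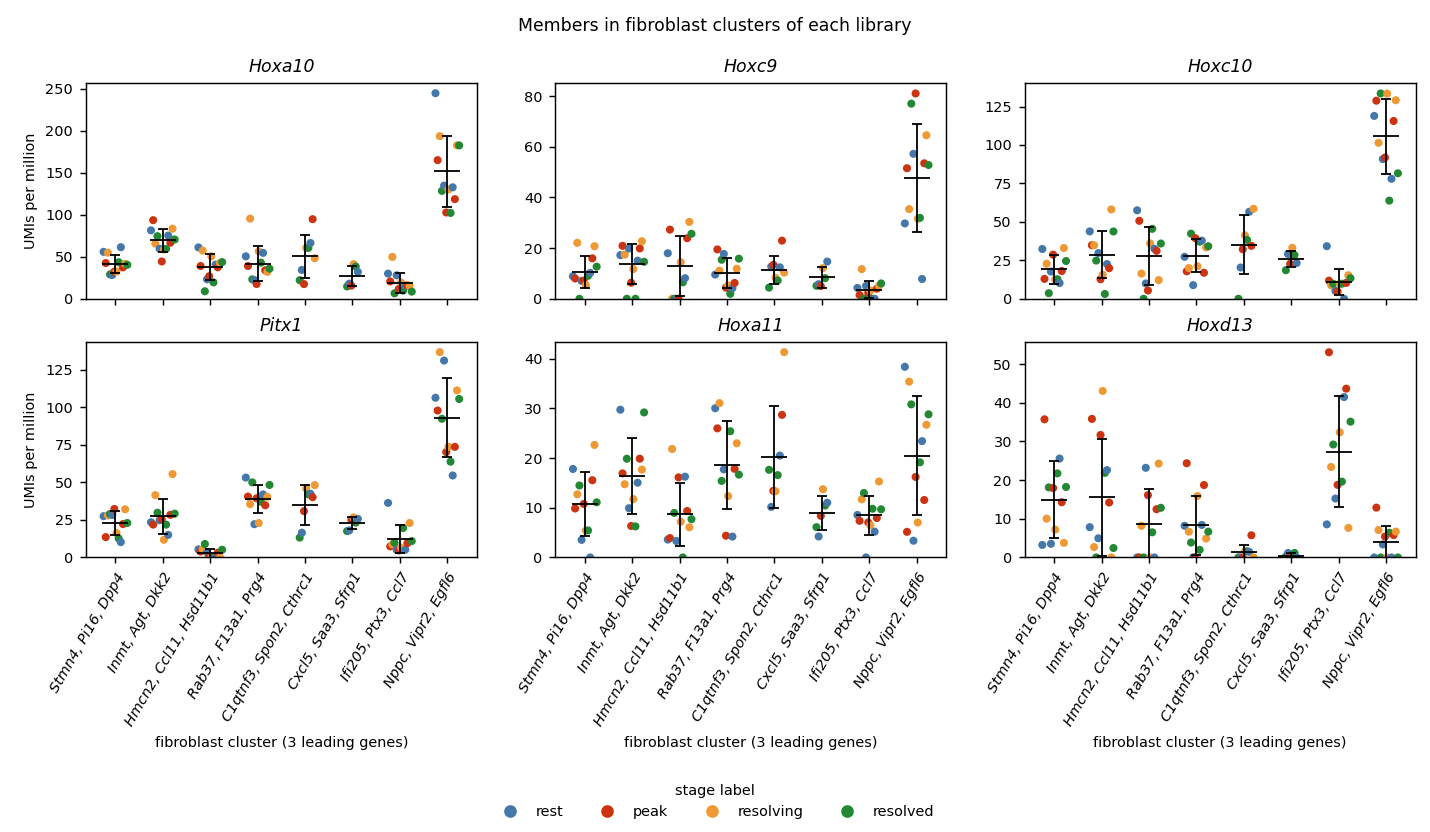
Levels of 6 members in each fibroblast cluster, in CPM of UMIs, with 1 point per library that had at least 10 cells of the cluster, coloured by stage label, and black marks for the mean ± SD over libraries. Hoxa10, Hoxc9, Hoxc10 and Pitx1 peak in the cluster led by Nppc, where Hoxa10 runs from 102 to 245, and Hoxd13 peaks in the cluster led by Ifi205, from 7.64 to 53.0.

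Pitx1 was nearly absent from the cluster led by Hmcn2, Ccl11 and Hsd11b1 (842 cells), with 13 UMIs and no UMI in 5 of 12 libraries. It averaged 2.94 ± 2.98 CPM there, the lowest of the 8 clusters, and lay 3.21 ± 0.30 under the others on the log2 scale (a difference of -3.21, adjusted p = 2.89e-15, edgeR), lower in 12 of 12 libraries. Hoxa10 and Hoxc10 were present in the same cells at 37.5 ± 15.5 and 27.8 ± 18.7 CPM and were not called, while Hoxa11 was lower by 0.93 (-0.93 ± 0.27, adjusted p = 0.00397), which was not called without rest replicate 1 (-0.66, adjusted p = 0.0641). Of the 6 tested members 2 were called, against 17.4% of all genes.

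The remaining clusters differed chiefly in Hoxd13. In the cluster led by Stmn4, Pi16 and Dpp4 (2052 cells), a sublining cluster by its markers, Hoxd13 averaged 14.9 ± 9.98 CPM and was higher (1.27 ± 0.25, adjusted p = 1.69e-05, edgeR), and Hoxc10 was lower (-0.75 ± 0.16, adjusted p = 0.000102). In the cluster led by Inmt, Agt and Dkk2 (1126 cells), Hoxd13 averaged 15.6 ± 15.1 CPM and was higher (1.33 ± 0.31, adjusted p = 0.000345), though above the others in only 6 of 12 libraries, and Hoxa10 averaged 69.4 ± 13.3 CPM and was higher (0.69 ± 0.12, adjusted p = 1.31e-06). Each of these clusters had 2 members called, against 17.7% of all genes in either. In 3 of 4 other cell settings the closest match of the cluster led by C1qtnf3, Spon2 and Cthrc1 was named tenocyte, not fibroblast. In the C1qtnf3 cluster Hoxd13 averaged 1.29 ± 1.95 CPM (SD, n = 8) and in that led by Cxcl5, Saa3 and Sfrp1 0.488 ± 0.537 (n = 6), with log2 differences of -2.57 ± 0.44 and -3.35 ± 0.48 (adjusted p = 1.15e-06 and 7.94e-09). In the former Pitx1 (0.89 ± 0.15) and Hoxa11 (0.71 ± 0.19) were higher (adjusted p = 3.17e-07 and 0.00136), making 3 members called against 22.6% of all genes, and in the latter Hoxa10 was lower (-0.72 ± 0.14, adjusted p = 1.05e-05), making 2 against 26.6%. That Hoxa10 call was lost at resolution 0.5 (-0.32, adjusted p = 0.179, edgeR). The cluster led by Rab37, F13a1 and Prg4 (841 cells), the lining cluster by its markers, had Pitx1 alone called (0.73 ± 0.14, adjusted p = 2.46e-06), against 34.7% of all genes.

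Hoxa13, Hoxd10, Hoxd11 and Tbx4 did not pass the filter on low counts. In the fit without that filter, Hoxa13, Hoxd10 and Hoxd11 passed the F test over clusters and Tbx4 did not. There, 51.3% of 19013 genes passed. Hoxa13 averages ran from 1.30 in the cluster led by Cxcl5 to 7.31 CPM in that led by Stmn4, Hoxd10 from 1.92 in the one led by Hmcn2 to 8.54 in the one led by C1qtnf3, Hoxd11 from 4.85 in the one led by Hmcn2 to 15.0 in the one led by Inmt, and Tbx4 from 1.53 to 3.95. For each of them the SD over libraries in single clusters was of the same order as these differences.

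The synovial lining, the layer of Prg4-rich cells that faces the joint space, was compared with a sublining cluster within each library. Each side was a single cluster, the lining led by Rab37, F13a1 and Prg4 and the sublining led by Stmn4, Pi16 and Dpp4. The other fibroblast clusters were in neither group, and their mean Pitx1 ran from 2.94 CPM (Hmcn2) to 93.1 CPM (Nppc). Pitx1 was higher in the lining than in the Stmn4 cluster by 0.75 ± 0.14 on the log2 scale (adjusted p = 0.000123, edgeR), in 11 of 12 libraries. Hoxa10 (-0.04 ± 0.13) and Hoxc10 (0.29 ± 0.18) were not called. Only these 3 members passed the filter on low counts, and 1 of 3 called stood beside 28.4% of the 5193 genes tested.

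No member was called between stage labels in fibroblasts, with the suffixes labelled as deposited. Hoxd13 CPM was 4.03, 2.85 and 4.34 in rest replicates 1 to 3, 32.7, 3.17 and 18.4 at peak, 8.86, 6.00 and 5.01 in resolving, and 2.82, 3.58 and 15.0 in resolved. Of the peak libraries, replicate 2 lay within the range of rest, and the log2 difference of peak over rest was 2.29 ± 0.79 (SE, unadjusted p = 0.0142 and adjusted p = 0.9998, edgeR). Pitx1 CPM was 46.7, 21.7 and 35.9 at rest and 25.3, 25.6 and 25.7 at peak, so that the peak values lay within the range at rest, and Hoxa10 CPM was 97.8, 26.5 and 59.7 at rest and 59.99, 19.3 and 46.3 at peak. All 10 members were tested, and 0 were called against rest at peak, resolving or resolved, like 0% of all 11761 genes, of which 96, 91 and 63 had an unadjusted p under 0.05. The smallest adjusted p of a member was 0.9996, and DESeq2 also called none.

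The same values differed between the runs of 3 consecutive barcode suffixes. The runs were taken up because sums of these same fibroblasts were most alike within them. The p-values over runs thus describe this grouping and are no separate test of it. Hoxa10 CPM was 97.8, 59.99 and 76.6 in suffixes 1 to 3, 21.5, 26.5 and 19.3 in suffixes 4 to 6, 54.9, 55.3 and 59.7 in suffixes 7 to 9, and 46.3, 55.4 and 43.5 in suffixes 10 to 12. The first pair of runs did not overlap, and the F test over the 4 runs gave an adjusted p of 8.30e-06 (edgeR). Hoxc9 CPM was 15.3, 16.2 and 18.2 in the first run, 7.22, 8.95 and 7.52 in the second, 9.54, 7.63 and 11.7 in the third, and 17.7, 20.8 and 15.7 in the fourth (F test, adjusted p = 0.000136, edgeR), so the first and last runs lay above the other two. Hoxa11, Hoxd13 and Pitx1 also passed (adjusted p = 0.00515, 0.0156 and 0.0423), which makes 5 of 10 members, beside 57.7% of all genes. The SD of log2 CPM was smaller within runs than within labels for 8 of the 10 members, 0.227 against 0.726 for Hoxa10 and 0.846 against 0.989 for Hoxd13. These SDs come from the same sums as the runs, so they too only describe the grouping. The like count over all genes was not computed.

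**Figure D3:**
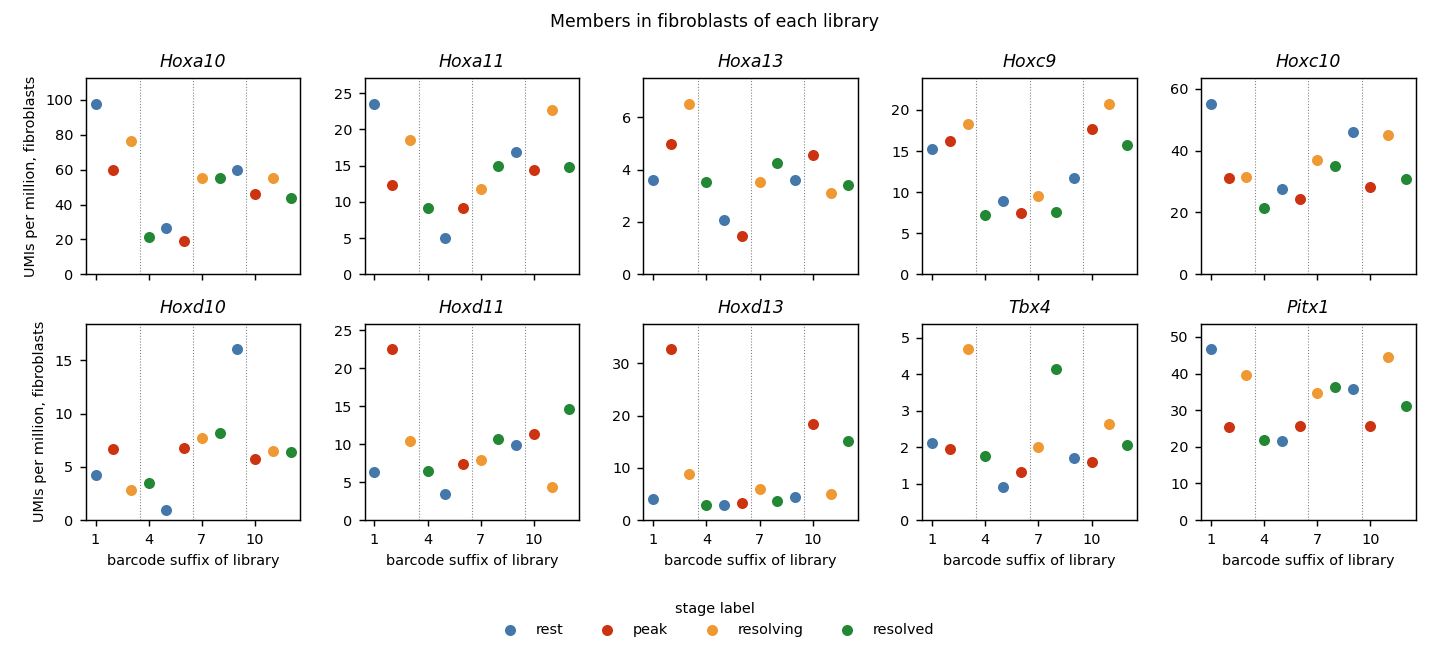
Level of each member in the fibroblasts of each library, in CPM of UMIs, against the barcode suffix of the library, coloured by stage label, with dotted lines between runs of 3 suffixes. Hoxa10 lies between 19.3 and 26.5 in suffixes 4 to 6 and between 59.99 and 97.8 in suffixes 1 to 3, whatever the colour, and Hoxd13 is highest at 32.7 in suffix 2.

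Against suffixes 1 to 3, 7 members were lower in suffixes 4 to 6 (35% of all genes were called), 2 were lower in suffixes 7 to 9 (24.7%) and 0 were called in suffixes 10 to 12 (0.867%). In suffixes 4 to 6 the log2 differences ran from -0.59 ± 0.21 for Hoxc10 to -2.30 ± 0.67 for Hoxd13, with Hoxa10 at -1.71 ± 0.16 (adjusted p = 1.93e-06, edgeR). For Hoxd13 the value was -0.97 and not called without peak replicate 1, the library with the highest level. Of the other calls in suffixes 4 to 6, those of Pitx1 and Hoxc10 were each lost in 8 of 23 alternatives, at -0.17 and -0.25 at resolution 0.5, and that of Hoxa13 in 5. Without rest replicate 1, Hoxc10 was at -0.28 and Pitx1 at -0.41. In suffixes 7 to 9 the Hoxd13 call (-1.73, adjusted p = 0.0463, edgeR) was lost in 15 of 23 alternatives, at -0.40 (adjusted p = 0.599) without peak replicate 1. The clusters led by C1qtnf3 and by Cxcl5 make up most fibroblasts in suffixes 4 to 9. In the fibroblast clusters that had at least 10 cells in every library, 2 members passed the F test over runs, Hoxa10 and Hoxc9, beside 12.8% of all genes. There, Hoxa10 was lower in suffixes 4 to 6 (-0.83 ± 0.18, adjusted p = 0.0123; 5.41% of all genes called) and Hoxc9 in suffixes 7 to 9 (-0.88 ± 0.21, adjusted p = 0.0318; 2.79%), and the Hoxd13 differences were -0.32 ± 0.67 and 0.00 ± 0.79. Each run holds 3 pools of animals, and what the runs stand for was not tested.

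In the other skeletal types the same stage labels gave 0 called members as well, like 0% of the 3063, 6352 and 6334 genes tested in tenocytes, chondrocytes and osteoblasts. Over runs, Hoxc9 and Pitx1 passed the F test in chondrocytes (adjusted p = 0.0316 and 0.00508, edgeR), beside 27.4% of all genes. Pitx1 in chondrocytes averaged 32.8 ± 9.06, 32.7 ± 13.9, 54.5 ± 13.6 and 78.4 ± 16.8 CPM in the 4 runs in suffix order, and Hoxc9 27.7 ± 5.14, 9.07 ± 4.52, 26.2 ± 6.54 and 14.3 ± 3.21 (SD, n = 3). No tested member passed in tenocytes (3.95% of all genes) or osteoblasts (1.85%).

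The balance between the Hox genes also varied. Hoxa13 and Hoxd13 together made up 3.64%, 6.38% and 4.72% of the UMIs of the 8 Hox members in fibroblasts of rest replicates 1 to 3, 20.2%, 5.84% and 15.7% at peak, 8.86%, 6.90% and 4.99% in resolving, and 8.37%, 5.61% and 12.8% in resolved. By run, the share lay between 3.64% and 20.2% in suffixes 1 to 3, 5.84% and 8.37% in suffixes 4 to 6, 4.72% and 6.90% in suffixes 7 to 9, and 4.99% and 15.7% in suffixes 10 to 12. The Wilson intervals of the 3 highest libraries, 17.7% to 23.0%, 13.6% to 18.0% and 10.4% to 15.6%, lay apart from that of rest replicate 1, 2.64% to 4.99%. No test was made of this share. Across clusters it was 36.6% (32.7 to 40.6) in the one led by Ifi205, 16.2% (14.4 to 18.2) in the one led by Stmn4 and 1.80% (1.26 to 2.56) in the one led by Nppc. The Ifi205 cluster made up 14.9%, 19.4% and 22.3% of fibroblasts in the 3 libraries with the highest shares and 2.04% to 13.4% in the other 9.

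**Figure D4:**
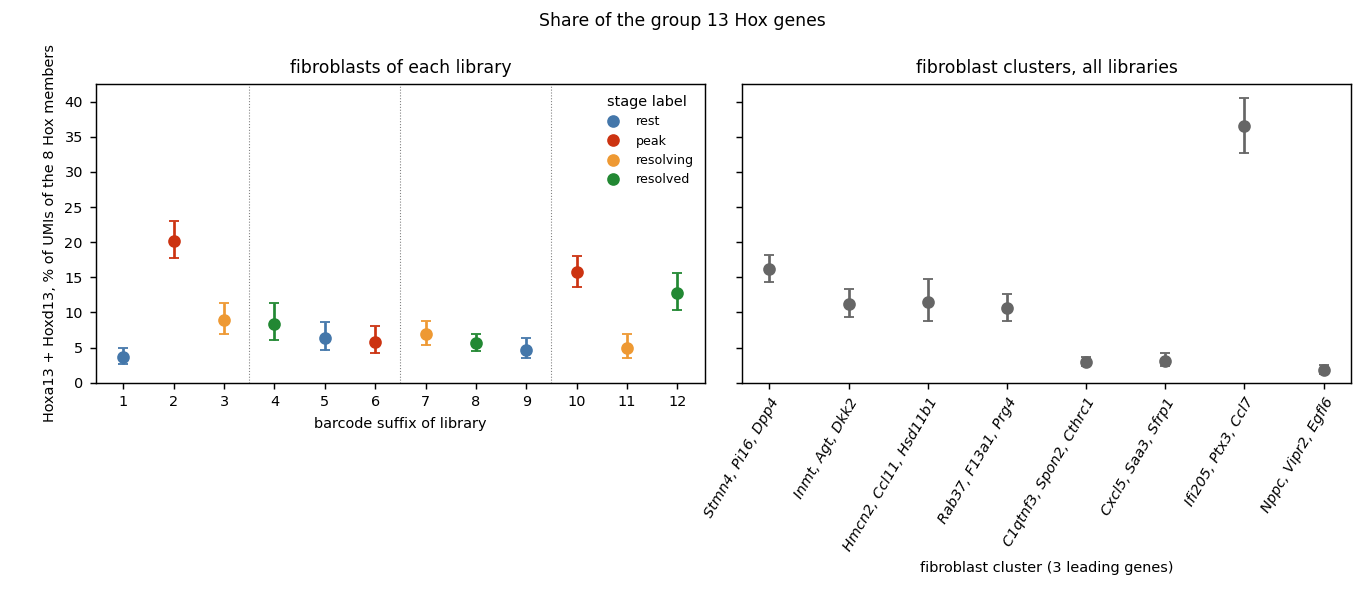
Hoxa13 and Hoxd13 as a percentage of the UMIs of the 8 Hox members in fibroblasts, by library (left, against barcode suffix, coloured by stage label) and by fibroblast cluster over all libraries (right), with 95% Wilson intervals that cover counting error only. Suffixes 2, 10 and 12 lie highest at 20.2%, 15.7% and 12.8%, and the cluster led by Ifi205 lies at 36.6%.

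In single fibroblasts, Hoxd13 was seldom found in the cells that held Hoxc10 or Pitx1. To describe this, the number of cells with both genes was set beside the number expected if the genes were independent within each library and cluster. Cells with Hoxc10 and Hoxd13 numbered 10, against 50.4 expected (a ratio of 0.198), below expectation in 12 of 12 libraries. Cells with Hoxd13 and Pitx1 numbered 16 against 52.1 (0.307), also below in 12 of 12, and cells with Hoxc9 and Hoxd13 numbered 7 against 27.2 (0.258), below in 11 of 12. In the 488 fibroblasts with Hoxd13, Hoxc10 was at 3.61 CPM and Pitx1 at 5.25, against 34.8 and 32.7 in the others, lower in 12 of 12 libraries for both. Unlike the expected numbers, these levels pool all fibroblast clusters, which themselves differ. Mean Hoxc10 ran from 11.1 CPM in the Ifi205 cluster, where Hoxd13 was highest, to 106 CPM in the Nppc cluster. How much of the gap lies between clusters was not tested. The median depth was 5674 UMIs in fibroblasts with Hoxd13 and 5888 in those without, whereas fibroblasts with Hoxc10 had a median of 7541 UMIs and those without 5597.

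Neighbours within a cluster of genes were found together more often. Hoxd11 and Hoxd13 shared 87 cells against 36.0 expected (2.42, above in 12 of 12 libraries), Hoxd10 and Hoxd11 68 against 25.6 (2.66, above in 11 of 12), and Hoxc9 and Hoxc10 253 against 160 (1.58, above in 12 of 12). Hoxa10 and Hoxa11 shared 331 against 246 (1.35, above in 12 of 12). Across gene clusters, Hoxa13 and Hoxd13 shared 26 against 14.1 (1.85, above in 9 of 12), and Hoxc10 and Pitx1 530 against 392 (1.35, above in 12 of 12). The cells of a pair share their library and depth. With each cell thinned to 2000 UMIs, the ratios of Hoxc10 with Hoxd13, Hoxd13 with Pitx1, Hoxd11 with Hoxd13 and Hoxc9 with Hoxc10 were 0, 0.135, 2.67 and 2.01, on 0, 1, 19 and 50 cells. Hoxa13 with Hoxd13 was then below expectation, with 1 cell against 2.13 (0.47). In osteoblasts and tenocytes no cell held both Hoxc10 and Hoxd13, against 7.80 and 5.11 expected, and 1 chondrocyte did, against 6.12.

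**Figure D5:**
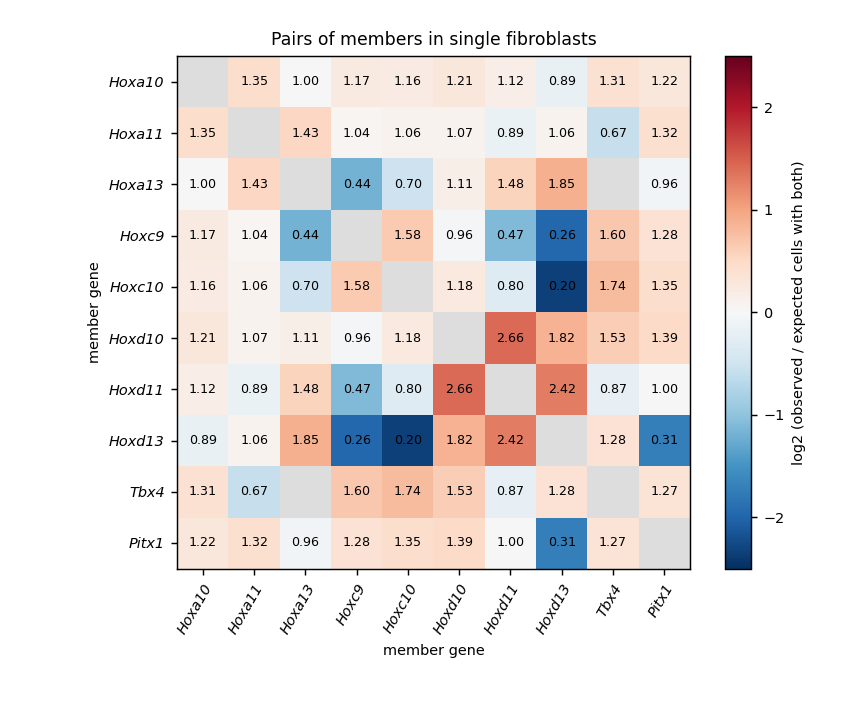
Observed over expected number of single fibroblasts with at least 1 UMI of both genes, for each pair of members, with the expectation taken within each library and cluster, and the colour on a log2 scale. Grey cells mark the diagonal and pairs with an expectation under 5 cells. Hoxd13 lies at 0.20 with Hoxc10 and 0.31 with Pitx1, and at 2.42 with Hoxd11.

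Of the other genes of limb patterning, a list of 37 in the files, 16 were tested across fibroblast clusters. In the Nppc cluster 11 of them were called (31.1% of all genes), 8 higher and 3 lower, with a median log2 difference of 0.43 against 0.00 over all genes, and the largest differences were those of Dlx6 (6.26 ± 0.24), Dlx5 (4.63 ± 0.12) and Shox2 (1.89 ± 0.14), which pattern the limb skeleton, and, on the lower side, Hand2 (-1.25 ± 0.23). In the Ifi205 cluster 7 were called (34.2% of all genes), 6 higher, among them Bmp2 (1.5 ± 0.15) and Hand2 (1.0 ± 0.17), and Shox2 was lower (-0.84 ± 0.22). Hoxa9, the tested gene among the 8 other Hox genes at the 5′ ends of their clusters, was higher in the Nppc cluster (1.29 ± 0.14) and lower in the Ifi205 cluster (-1.26 ± 0.22), as Hoxa10 was. Against vascular endothelial cells, 10 of the 23 Hox genes nearer the 3′ ends were tested and all were called (53.2% of all genes), 8 of them lower in fibroblasts, with a median log2 difference of -3.31, against 3.17 for the 7 tested members and 0.06 over all genes. A gene could pass the filter on low counts through a type where it was high. These medians thus depend on which genes passed, and no conclusion is drawn from them. Of 2 tested non-coding RNAs of the Hox clusters, both were lower in fibroblasts than in vascular endothelial cells.

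Tbx5 followed the runs of suffixes in fibroblasts, at 3.88 ± 0.47, 1.20 ± 0.13, 0.799 ± 0.372 and 3.70 ± 0.69 CPM in suffix order (SD, n = 3), with an F test adjusted p of 0.000160 (edgeR), whereas Tbx4, at 2.92 ± 1.53, 1.33 ± 0.43, 2.61 ± 1.33 and 2.09 ± 0.51, did not pass (adjusted p = 0.158). By cluster, Tbx5 was at 5.27 ± 2.57 CPM in the one led by Stmn4 and at 0.221 ± 0.348 in the one led by Cxcl5, which had at least 10 cells in 6 libraries.

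Likeness of pattern was measured as Pearson's r of log2(CPM + 1) over 18 units, the 10 types with sums in enough libraries and the 8 fibroblast clusters, as a description over units that share libraries. The gene most like Hoxc9 was Hoxc10 (0.955), and Hoxc6 came next (0.909). The closest to Hoxd11 was Hand2 (0.966), to Pitx1 Gsc (0.943), to Hoxa11 Dse (0.953), to Hoxa10 Acad8 (0.941), to Hoxd13 Gsn (0.882), to Hoxa13 Ecm1 (0.918), to Tbx4 Hebp2 (0.929) and to Hoxd10 Cda (0.817). Among the members themselves, Hoxd10 was the least like the rest, with r from -0.08 with Hoxc9 to 0.51 with Hoxd11.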

How the data were processed

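Single-cell RNA was sequenced in 12 libraries (10x Chromium 3′ v2), 3 for each of 4 stage labels. The deposited values are UMI counts per gene and cell, which the authors made with Cell Ranger on mm10. In each of the 12 libraries the median deposited depth was 5358 UMIs per cell. The members and lists were chosen with earlier results of these data known, and the limits by which markers name a cluster were chosen once the clusters were known.

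Cells with 500 to 5000 genes and at least 500 UMIs, under an upper UMI limit set per library, were kept (20060 of 21042). They were clustered with scanpy 1.11.5 and leidenalg 0.10.2 on 2000 variable genes, 30 components, 20 neighbours and resolution 1, without 85 positional genes, which gave 25 clusters. Doublets were left in, and leaving them out was an alternative. Counts were summed per library and type or cluster (at least 10 cells) and tested with edgeR 4.0.16 (quasi-likelihood, filterByExpr, TMM), with the library as a block for comparisons within libraries. Calls needed an adjusted p under 0.05 (Benjamini-Hochberg) and a log2 difference over 0.5, and F tests the adjusted p alone. The fit was run on simulated counts with planted changes. Those counts held no differences between runs beyond the planted ones, and do not show how the stage tests behave on these libraries. Intervals are 95% (Wilson or exact), and floors stand for 3 counts.

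All 10 members are named, with Tbx5, at most the 3 largest called changes each way per list, and the genes most like each member. Alternatives were DESeq2 1.42.0, other scaling, no filter, other cell limits, resolution 0.5, block terms and leaving out each library. Fits to clusters shared by all libraries, the unfiltered fit in other types and the thinned pairs were chosen after seeing the data. Replicate numbers were not taken to pair libraries (correlations of deviations from -0.548 to 0.667).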

Additional observations from a re-analysis of the deposited data

Results flagged for a closer look

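Outside the named cell types, members were found in the 4 clusters left without a name, which the reported fits do not use. The clusters led by Angptl7 and by Ccl9, 2247 cells, had all 7 fibroblast markers. They were left unnamed because their leading genes held more chondrocyte or osteoblast markers. With them added to fibroblasts, 0 members were called across stages and 5 over runs, as in the reported fits. The cluster led by Angptl7, Fbln7 and Gpnmb (1361 cells) held 1856 UMIs of the 10 members, 243.8 CPM. The cluster led by Ccl9, Hp and Nt5dc2 (886 cells) held 943 UMIs, 181.7 CPM, and that led by Tnnc2, Acta1 and Pvalb (132 cells) 158 UMIs, 227.2 CPM. The cluster led by Cfd, Adipoq and Calml3 (20 cells) held 19 UMIs. Each count was above the limit of 3 that a count of 0 allows. In 10 tests for a library far from the others, none passed.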

How the results depend on the processing

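Across the alternatives, 1070 values kept their direction and their side of the limits, 72 kept their direction but were no longer called, and 4 changed sign. Clusters of other settings were matched by shared cells, and 8 pairs of cluster and setting gave no value: 4 in which the closest cluster took under 50% of its cells from the fibroblast cluster, and 4 in which it was named tenocyte (3) or osteoblast (1). The sign changed for Pitx1 in fibroblasts over chondrocytes without doublets (0.94), for Hoxa10 (0.039) and Hoxa11 (0.25) in the Ifi205 cluster with no upper limit on genes and UMIs, and for Hoxd13 in suffixes 7 to 9 over 1 to 3 in the shared clusters (0.0001096). The cause was not tested.

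Without the filter on low counts, 4 members were called in the lining, beside 20.8% of all genes (1 with it, beside 28.4%). Members called over runs numbered 3 with no upper limit, 3 with a mitochondrial limit of 10% and 8 at resolution 0.5. In the shared clusters they numbered 2 (12.8% of all genes), and in the reported fit 5 (57.7%). The pairs called over runs in the other types numbered 1 with DESeq2 (2 reported). The share of fibroblasts with a member was 27.7% thinned, 53.4% with no upper limit, 53.2% with the mitochondrial limit, 54.1% without doublets and 53.7% at resolution 0.5, against 55.8%. Leaving out single libraries gave 35 to 45 called pairs of member and type (44), 6 to 7 members across clusters, 1 in the lining, 0 across stages and 4 to 7 over runs. Counts given here without a share of all genes describe only the change from the reported count. With the replicate block, 0 members were called across stages, as without it. Tbx4 and Hoxa13 had the fewest UMIs of the members, 256 and 388.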
